A study of Oryctolagus cuniculus with 4 samples.

Results

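Decorin (DCN, ENSOCUG00000006969) and lumican (LUM, ENSOCUG00000005592) were followed through every cell class of rabbit bladder mucosa. They are 2 of the 18475 genes in the count matrices, of which 9771 carry a symbol, and they were taken by symbol and not by their values. Droplet-based single-cell RNA sequencing had been performed on 4 adult New Zealand rabbits with 1 library per rabbit. Injury_1 and Injury_2 were sampled on day 10 after a focal resection of the bladder mucosa, once the defect had regained an epithelial cover. Normal_1 and Normal_2 came from normal bladder. The labels name no genetic change and no drug for either group. The labels name the tissue urothelium, but the digested tissue was a piece of mucosa, and fibroblast-like cells made up 33.2% and 43.3% of the kept cells in the injured samples and 28.4% and 53.7% in the normal ones.

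Decorin and lumican belong to the small leucine-rich proteoglycans, secreted core proteins built of leucine-rich repeats that bind the surface of collagen fibrils and limit their sideways growth. Decorin carries a chondroitin or dermatan sulfate chain and binds transforming growth factor beta and several receptor tyrosine kinases. Lumican carries keratan sulfate chains in the cornea and mostly occurs as a glycoprotein with few or no such chains elsewhere. In the bladder wall both lie among the collagen fibrils of the lamina propria, the connective tissue under the urothelium, and the study used both as markers of fibroblasts. For that reason the cell classes here were named without them. In the RefSeq annotation mOryCun1.1 the genes EPYC, KERA, LUM and DCN, all of this family, are neighbours in that order.

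Each count is a unique molecular identifier (UMI), that is a captured RNA molecule counted once. After filtering, 6081, 5529, 4308 and 6027 cells remained in Injury_1, Injury_2, Normal_1 and Normal_2, with a median of 6755, 7186, 4813.5 and 6759 UMIs per cell, so Normal_1 was the shallowest library. Between 8 and 13 cell barcodes were shared by any pair of libraries. Levels are given in CPM, the UMIs of a gene summed over all cells of a class in a sample and scaled to the total UMIs of those cells. The kit captures the 3′ ends of transcripts and may capture the 2 genes with different efficiency, so the DCN to LUM ratio is a ratio of UMIs that can be compared between cells and samples but is not a ratio of molecules. It was not possible to tell fewer cells that express a gene from less RNA per cell in a summed level, and shares of cells are therefore given beside the levels.

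Both genes were among the most abundant transcripts of the mucosa. DCN made up 12122 and 13587 CPM of the whole library in the injured samples and 5435 and 8189 CPM in the normal ones, and LUM made up 5820, 6266, 1877 and 4470 CPM. Of the DCN UMIs, 93.8%, 95.6%, 96.5% and 93.6% came from fibroblast-like cells, and of the LUM UMIs 93.4%, 95.5%, 97.1% and 94.2%. Nearly all of either transcript was thus found in the fibroblast-like compartment.

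In fibroblast-like cells, Injury_1 and Injury_2 held 30638 and 26913 CPM of DCN, and Normal_1 and Normal_2 held 20434 and 14642. LUM stood at 14643, 12403, 7105 and 8039 CPM in the same order. The mean over the 4 samples was 23157 ± 7071 CPM for DCN and 10548 ± 3576 CPM for LUM (SD, n = 4). Both injured samples lay above both normal samples for either gene.

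T or NK-like cells came next, with 3228, 1533, 2966 and 4067 CPM of DCN and 1285, 780, 895 and 2649 CPM of LUM. Fibroblast-like cells were higher than this class by 3.00 ± 0.95 on the log2(CPM + 10) scale for DCN (SD, n = 4) and by 3.01 ± 1.03 for LUM (SD, n = 4). The difference had the same direction in 4 of 4 samples for both genes, with an exact two-sided sign-flip permutation p of 0.13, the smallest that 4 samples allow. The lymphocyte value rested on few cells. Over the 4 samples, 64 of 1145 T or NK-like cells held at least 50 DCN UMIs, these cells carried 92.8% to 99.0% of the DCN UMIs of the class, and 50 of the 64 had a doublet score in the top 5% of cells. Without the 64 cells the class held 39.9 to 134 CPM of DCN and 18.4 to 109 CPM of LUM. Over the other alternatives the difference from T or NK-like cells ran from 2.95 to 7.97 for DCN and from 2.92 to 7.22 for LUM. The upper ends are those without the 64 cells, a selection that uses DCN itself and widens the difference by its design. Without the cells in the top 5% of doublet scores, smooth muscle-like cells came next for DCN at 1931 ± 1112 CPM, ahead of T or NK-like cells at 832 ± 508 CPM (SD, n = 4).

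**Figure D1:**
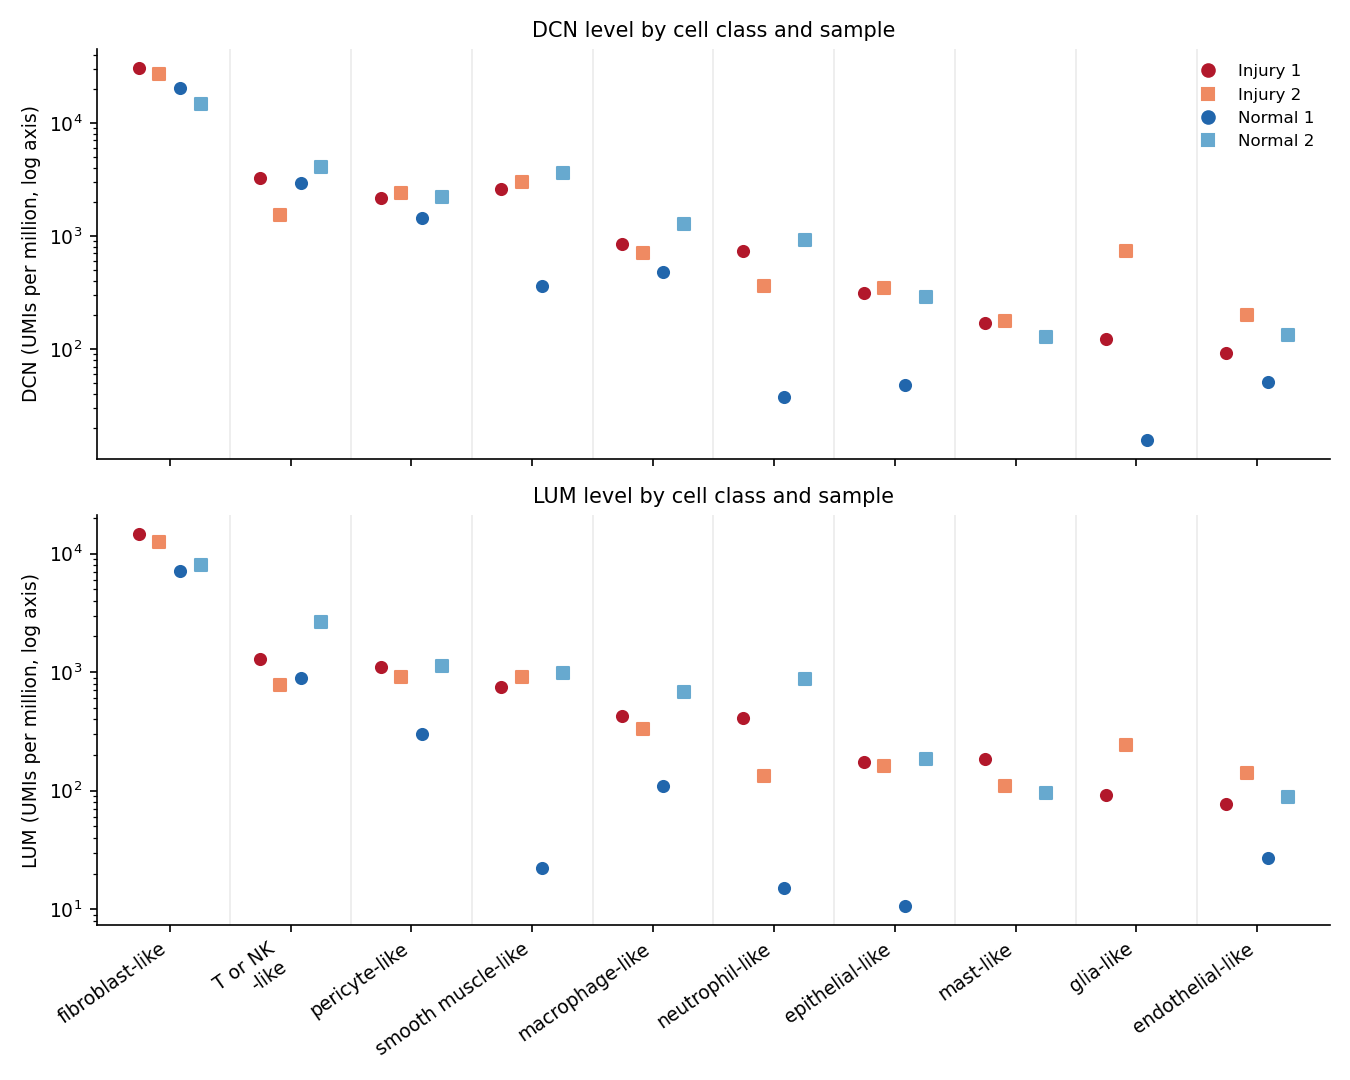
DCN (top) and LUM (bottom) in CPM on log axes, by cell class, with 1 point per sample and classes of under 10 cells in a sample left out. Samples with a value of 0 have no point. The fibroblast-like points lie between 14642 and 30638 for DCN and between 7105 and 14643 for LUM, above every other class in every sample.

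Among the remaining classes, the mural cells of vessels and the smooth muscle held some of the highest values. Pericyte-like cells, which wrap capillaries, held 2177, 2420, 1453 and 2211 CPM of DCN and 1100, 915, 302 and 1131 CPM of LUM. In this class 43 of the 47 cells with at least 50 DCN UMIs had a doublet score in the highest 5%, and the other cells held 298 to 935 CPM of DCN. Smooth muscle-like cells held 2605, 3000, 363 and 3612 CPM of DCN and 756, 912, 22.3 and 973 CPM of LUM, with Normal_1 far below the other samples for both genes.

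The smooth muscle class consisted of 2 clusters that differed in DCN. The smaller one, led by ACTG2, MYH11 and LMOD1, genes of the contractile apparatus, held 9087, 9198, 3209 and 8265 CPM of DCN in 27, 31, 14 and 55 cells. A DCN UMI was found in 100% of its cells in both injured samples and Normal_2 and in 57.1% in Normal_1. The larger one, led by RERGL, SNCG and MYH11, held 656, 984, 166 and 1542 CPM. Over both clusters, 17 of the 64 cells with at least 50 DCN UMIs had a doublet score in the highest 5%. Without the 64 cells the class held 614, 661, 309 and 1182 CPM of DCN.

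Endothelial-like cells held 92.6, 199, 51.4 and 135 CPM of DCN and 77.3, 140, 26.9 and 88.7 CPM of LUM. This class should lack both genes and served as the comparison for shares of cells with a UMI, and the part of free RNA and doublets in its values was not tested. Of its 5444 cells, 17 held at least 50 DCN UMIs, and the others held 26.1 to 92.6 CPM of DCN. With every cell thinned to 1000 UMIs, 9.34%, 8.56%, 2.61% and 6.20% of endothelial-like cells held a DCN UMI (without thinning 43.7%, 40.2%, 10.3% and 29.5%), against 98.8%, 98.1%, 79.2% and 74.98% of fibroblast-like cells (without thinning 99.3%, 99.3%, 81.9% and 85.7%). The median depths behind these shares were 6388, 6260, 4668 and 6473 UMIs in endothelial-like cells and 7963, 8518, 5078 and 6998 in fibroblast-like cells, and thinning left out 2, 10, 9 and 8 endothelial-like and 2, 1, 6 and 11 fibroblast-like cells. In epithelial-like cells DCN was 312, 346, 48.4 and 288 CPM, and in macrophage-like cells 847, 711, 482 and 1267 CPM. In epithelial-like cells 38 of 1532 cells held at least 50 DCN UMIs and carried 65.3% to 77.3% of the DCN UMIs, 16 of them had a doublet score in the highest 5%, and the others held 11.1 to 107 CPM. In macrophage-like cells 32 of 1200 cells carried 86.4% to 94.7%, 29 of them had such a score, and the others held 26.5 to 192 CPM. Neighbours in an order of levels are said to differ where the mean difference exceeded its SD over samples and had the same direction in every sample. Below the fibroblast-like cells, only the epithelial-like and mast-like classes met this for DCN, with epithelial-like cells higher. Without the cells in the top 5% of doublet scores, mast-like cells held 194 ± 16.8 CPM (SD, n = 3) and epithelial-like cells 157 ± 82.9 CPM (SD, n = 4). These 2 means cover different samples, and the epithelial-like values ran from 34.5 to 213 CPM, around those of mast-like cells at 178 to 212 CPM. They therefore give no order of the 2 classes. With all cells kept, smooth muscle-like cells exceeded macrophage-like cells by 1.19 ± 1.09 on the log2 scale, in 3 of 4 samples (SD, n = 4).

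The injured and the normal fibroblast-like cells were then compared on UMI counts summed per sample. DCN was 28775 ± 2634 CPM in the injured samples and 17538 ± 4095 CPM in the normal samples (SD, n = 2 each), and LUM was 13523 ± 1584 CPM against 7572 ± 660 CPM. The edgeR quasi-likelihood fit over 8751 genes gave DCN a log2 fold change of 0.84 (SE 0.22), which is 1.79-fold higher in Injury, with an adjusted p of 0.267. LUM had a log2 fold change of 0.95 (SE 0.23), 1.93-fold higher, with an adjusted p of 0.229. Neither passed the threshold of 0.05, and edgeR called 0 of the 8751 genes in this comparison (0%), while 963 had an unadjusted p under 0.05 and DESeq2 called 256 of 13591 (1.88%), neither DCN (adjusted p = 0.189) nor LUM (adjusted p = 0.103) among them. The injured samples lay above the normal ones for DCN and for LUM, as they did for 16.2% of all genes tested.

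The difference between injured and normal fibroblast-like cells was not spread evenly over them. The fibroblast-like cells were clustered again without DCN, LUM and the other listed proteoglycans among the variable genes, which gave 6 subsets of 1988, 2369, 1219 and 3218 cells in the 4 samples, and groups of 41 and 32 cells led by genes of other classes were set aside. Subset 0 was led by CHI3L1, COCH, APOD, COL11A1 and KIF26B, subset 1 by MYOC, CCL2, ITGBL1, MFAP5 and PCOLCE2, and subset 2 by ADH6, PLBD1, S100A4, LVRN and DTX4. Subset 3 was led by DPP10, EREG, NPY, PTN and IL1RL1. Subset 4 was led by CCDC3, HHIP, PTPRQ, ACTA2 and WIF1, of which HHIP and WIF1 encode secreted antagonists of hedgehog and WNT signals. Subset 5 was led by MMP3, MMP10 and MMP1, matrix metalloproteases, and by AREG and NRG1, growth factors of the EGF family. Because the subsets come from clustering these same cells, their levels are a description.

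DCN was highest in subset 2, with 38805 and 37096 CPM in the injured and 32275 and 26123 CPM in the normal samples. Subset 1 held 33274, 29201, 31017 and 25797 CPM, subset 0 held 28968, 24418, 25636 and 23003 CPM, and subset 3 held 28365, 26408, 17084 and 16785 CPM. In each sample subset 2 lay above subset 1, and subset 1 above subset 0. In order of mean level, the step from subset 0 to subset 3 was smaller than its SD over samples, as was that from subset 4 to subset 5.

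LUM followed another order among the same subsets. It was highest in subset 0, with 17692, 18532, 10929 and 16043 CPM, then came subset 1 with 17393, 13241, 9434 and 13646, subset 2 with 13177, 11135, 9687 and 15019, and subset 3 with 8872, 8751, 5788 and 7323 CPM. By the rule on neighbours, subsets 1 and 2 did not differ in LUM, nor did subsets 4 and 5, and the other steps in this order did.

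Subsets 4 and 5 held lower levels, with a wide gap between the conditions. In subset 4, DCN was 13683 CPM in Injury_1 and 9589 in Injury_2 but 578 in Normal_1 and 2574 in Normal_2, and LUM was 5756 and 5168 against 246 and 1188 CPM. In subset 5, DCN was 18936 and 14942 CPM in the injured samples and 139 and 579 CPM in the normal ones, and LUM was 7913 and 7412 against 65.1 and 272 CPM. The injured and the normal samples did not overlap in either subset for either gene, and both injured samples lay above both normal ones in 19.2% of all genes tested in subset 4 and 34.4% in subset 5. Among the subsets of the normal samples these had the lowest levels of DCN and LUM.

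**Figure D2:**
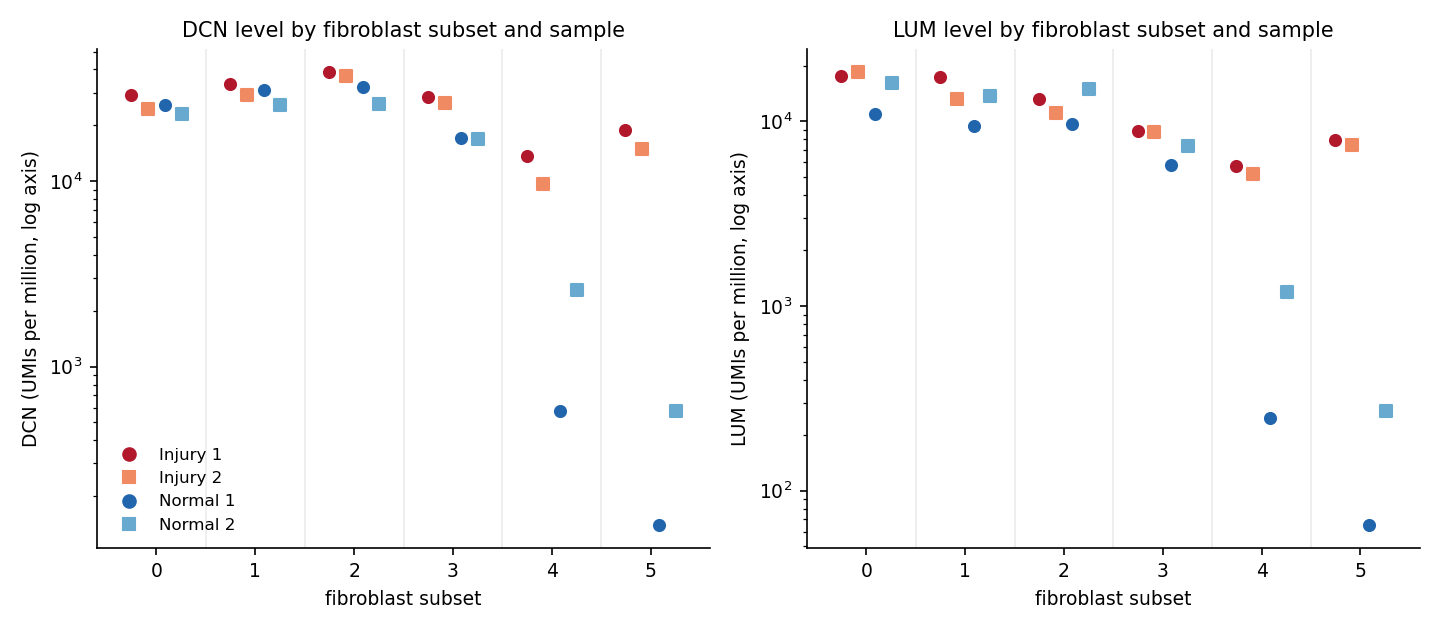
DCN (left) and LUM (right) in CPM on log axes, by fibroblast subset, with 1 point per sample. The 4 samples lie close together in subsets 0 to 2, while in subset 5 the injured samples hold 18936 and 14942 CPM of DCN and the normal samples 139 and 579.

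DCN and LUM rose in subset 5 after injury. The subset held 44, 102, 104 and 169 cells, and the edgeR fit over 4290 genes gave a log2 fold change of 5.29 (SE 0.68) for DCN and 5.23 (SE 0.67) for LUM, both with an adjusted p of 0.0101. This is 39.1-fold and 37.6-fold. With 1 sample left out, the log2 fold change ran from 4.58 to 6.83 for DCN and from 4.52 to 6.78 for LUM. In this subset 50 genes, 1.17% of those tested, were called higher in Injury. By the absolute log2 fold change DCN ranked 13 and LUM 15 among the 4290 genes.

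In subset 4, with 129, 205, 170 and 1048 cells, DCN had a log2 fold change of 2.87 (SE 0.64, adjusted p = 0.352) and LUM of 2.92 (SE 0.67, adjusted p = 0.353), which is 7.32-fold and 7.56-fold. The edgeR fit called 0 of 5361 genes there (0%), with 325 at an unadjusted p under 0.05. DESeq2 called 42 of 11595 genes (0.362%), among them DCN (adjusted p = 0.000203) and LUM (adjusted p = 0.000194). The calls in subset 4 thus depended on the test, and also on the filter on low counts and the replicate block, as given below. With 1 sample left out, the log2 fold change ran from 2.16 to 4.28 for DCN and from 2.19 to 4.42 for LUM.

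In subsets 0 to 3, neither gene passed the edgeR test. The log2 fold changes of DCN were 0.14 (SE 0.17), 0.19 (SE 0.23), 0.49 (SE 0.16) and 0.74 (SE 0.16) in subsets 0, 1, 2 and 3, and the smallest adjusted p was 0.161, in subset 3. Those of LUM were 0.41 (SE 0.25), 0.42 (SE 0.34), 0.07 (SE 0.28) and 0.47 (SE 0.21), with a smallest adjusted p of 0.464, in subset 0. Both injured samples lay above both normal ones for LUM in subset 0, for DCN in subset 2 and for both genes in subset 3, as they did for 27.1%, 14.6% and 18.3% of all genes tested there, while the groups overlapped for both genes in subset 1, where this share was 20.5%. Genes called in either direction made up 0.565%, 0.136%, 0% and 0.284% of those tested in these 4 subsets. In subset 2, where edgeR called none, 496 of 6420 genes had an unadjusted p under 0.05 and DESeq2 called 85 of 11277.

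Whether the effect of injury differed between the subsets was tested with an interaction of subset and condition, in 1 edgeR fit over the 24 sums with the sample as a block. This test was added after the values had been seen. It called 302 of 6887 genes (4.39%), with DCN at an adjusted p of 4.75e-05 and LUM at 8.67e-07. The 24 sums come from only 4 rabbits. The SD of DCN between the normal samples, on the log2(CPM + 10) scale, was 1.51 and 1.40 in subsets 4 and 5. It was 0.018 to 0.22 in subsets 0 to 3. A fit over all subsets together may therefore understate the spread in subsets 4 and 5, and its p-values are to be read with that limit. Relative to subset 0, the log2 change with injury was larger by 2.93 in subset 4 and by 5.34 in subset 5 for DCN, and by 2.75 and 5.02 for LUM. In subsets 1, 2 and 3 it differed from subset 0 by 0.08, 0.36 and 0.62 for DCN and by 0.04, -0.32 and 0.01 for LUM. The differences of subsets 4 and 5 from subset 0 were therefore several times those of subsets 1 to 3.

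Subset 4 made up 6.49%, 8.65%, 13.9% and 32.6% of the fibroblast-like cells in the 6 subsets and subset 5 made up 2.21%, 4.31%, 8.53% and 5.25%. Both were smaller parts of the injured samples. Without these 2 subsets, DCN in fibroblast-like cells was 32079, 29130, 26736 and 22515 CPM and LUM was 15463, 13348, 9287 and 12474 CPM. The log2 fold change with injury was then 0.40 (adjusted p = 0.454 by edgeR) for DCN and 0.48 (adjusted p = 0.549) for LUM, against 0.84 and 0.95 with all fibroblast-like cells.

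Single cells showed the same contrast. In subset 4 the median cell held 87 DCN UMIs in Injury_1 and 55 in Injury_2, but 0 in Normal_1 and 1 in Normal_2, and in subset 5 it held 193 and 118.5 against 0 and 0. At least 50 DCN UMIs were found in 62.8% and 53.2% of subset 4 cells of the injured samples and in 2.35% and 13.7% of those of the normal samples. No DCN UMI was found in 77.1% and 35.1% of the normal cells of subset 4 and in 82.7% and 52.1% of those of subset 5. Normal_2 therefore held a mixture in subset 4, in which most cells had few or no DCN UMIs and some had many.

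With each cell thinned to 1000 UMIs, 84.5% and 79.2% of injured and 12.6% and 38.7% of normal subset 4 cells held a DCN UMI (without thinning 89.9%, 92.2%, 22.9% and 64.9%). In subset 5 these shares were 95.5% and 97.3% against 5.61% and 16.8% (without thinning 97.7%, 100%, 17.3% and 47.9%). The endothelial-like cells of the normal samples, which should lack DCN, held 2.61% and 6.20% by the same measure, and those of the injured samples 9.34% and 8.56%. In each sample the share in subset 5 was above that in endothelial-like cells, and the gap was wider in the injured samples.

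Depth, doublet scores and marker genes were set beside these values. The median UMI count of subset 4 was 6890, 7471, 5072.5 and 7162.5, so the conditions overlapped in depth. In subset 5 it was 9870.5 and 8803 in the injured samples and 5945.5 and 7237 in the normal ones, so the injured cells were deeper, and the part of this difference in the summed levels was not tested. The median mitochondrial share of UMIs in subset 5 was 7.44% and 8.52% in the injured and 8.95% and 10.2% in the normal samples, and in subset 4 it was 8.57% and 9.07% against 8.98% and 9.48%. The conditions did not overlap in this share in subset 5, and its part in the result was not tested. Cells with a doublet score in the highest 5% made up 0.775%, 1.46%, 1.18% and 1.15% of subset 4 and 4.55%, 0%, 1.92% and 2.37% of subset 5. HHIP was 938, 615, 492 and 637 CPM and WIF1 was 196, 187, 137 and 224 CPM in subset 4. The summed level of the 5 fibroblast markers with a symbol was 41877, 53877, 20968 and 56532 CPM in subset 4 and 39302, 47342, 19178 and 51539 CPM in subset 5, with none of the 5 at 0. Of the marker lists of other classes, that of smooth muscle (5 markers, none at 0) was the highest at 2471, 3058, 819 and 2331 CPM in subset 4, and the lists of endothelial, pericyte, epithelial, macrophage, T or NK and neutrophil-like cells summed to at most 116 CPM there. The smooth muscle sum was higher in both injured samples than in both normal ones, and its part in the result was not tested. In subset 5 the smooth muscle list was again the highest of other classes, at 1397, 1915, 883 and 1991 CPM, and the conditions overlapped. The macrophage and neutrophil lists reached 377 and 319 CPM there in Injury_1 and at most 36.1 CPM in the other samples.

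Other genes had values that split in the same way in these cells. In subset 5, where EREG, SCARA5 and ABI3BP rose in the edgeR test (adjusted p = 0.00249, 0.00405 and 0.00899), EREG, an EGF family ligand, was 2558 and 1274 CPM in the injured samples and 1.55 and 5.58 CPM in the normal ones, and in subset 4 it was 483 and 140 against 3.42 and 0.129 CPM. The normal values of EREG rest on 1 to 7 UMIs each. EREG and PTN are leading genes of subset 3, which held 16785 to 28365 CPM of DCN. In subset 4 PTN was 209 and 154 against 27.4 and 8.28 CPM, SCARA5 was 134 and 90.3 against 1.14 and 6.85 CPM, and ABI3BP was 193 and 92.7 against 20.5 and 17.6 CPM. In subset 4 none of the 4 genes passed edgeR, with adjusted p-values of 0.164 for EREG, SCARA5 and ABI3BP and 0.174 for PTN. Of the 24 genes that fell in subset 5, CRYAB (log2 fold change -4.28, SE 0.40, adjusted p = 0.00405), HSPB1 (-2.06, SE 0.25, adjusted p = 0.00899) and HSPA8 (-2.05, SE 0.33, adjusted p = 0.0226) encode heat shock proteins, which protect other proteins under stress. These were higher in the normal cells, and their part in the result was not tested. All genes of this paragraph were chosen after their values had been seen. What part a different mixture of cell states inside subsets 4 and 5 has in the result was not tested.

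Fibroblast-like cells were also selected by a UMI of at least 2 of the 3 genes HHIP, PTPRQ and WIF1, which gave 128, 274, 186 and 1250 cells. These genes are leading genes of subset 4, and 67.2%, 60.2%, 54.8% and 71.2% of the selected cells were in subset 4 and 21.9%, 27.4%, 40.3% and 12.3% in subset 5, so the selection is not independent of the subsets. In them DCN was 13629 and 11595 CPM in the injured samples and 663 and 3477 in the normal ones, and LUM was 5925 and 5975 against 220 and 1517 CPM. The injured samples lay above the normal ones for both genes, as they did for 22.4% of all genes tested in these cells. The log2 fold changes were 2.54 (SE 0.72) and 2.71 (SE 0.83), and neither passed edgeR, with adjusted p-values of 0.474 for DCN and 0.544 for LUM, where edgeR called 0 of 5776 genes (0%) and 418 had an unadjusted p under 0.05. DESeq2 called 66 of 11877 genes (0.556%) and gave adjusted p-values of 0.00344 for DCN and 0.760 for LUM. This gate was chosen after the data had been seen.

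In the other classes no change of DCN or LUM passed the test. Across 7 classes and 6 subsets with at least 20 cells in every sample, 26 tests of the 2 genes gave 2 calls, both in subset 5. The log2 fold change of DCN was 0.33 (SE 0.26) in pericyte-like, 0.42 (SE 0.92) in smooth muscle-like, 0.51 (SE 0.60) in endothelial-like, 0.62 (SE 0.80) in epithelial-like, -0.31 (SE 0.47) in macrophage-like and -0.61 (SE 0.36) in T or NK-like cells, and 0.08 (SE 0.96) in neutrophil-like cells. That of LUM ran from -0.82 (SE 1.09) in neutrophil-like and -0.82 (SE 0.50) in T or NK-like cells to 0.77 (SE 0.64) in endothelial-like cells. The smallest adjusted p of the 2 genes over the 7 classes was 0.559, for DCN in T or NK-like cells. The errors were large, and DCN in smooth muscle-like cells ranged from 363 to 3612 CPM between samples. Genes called by edgeR made up 1.66% of those tested in epithelial-like cells, 0.0456% in T or NK-like cells and 0% in the other 5 classes, where 151 to 758 genes had an unadjusted p under 0.05 and DESeq2 called 2 to 66.

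The balance of the 2 proteoglycans was examined next. In fibroblast-like cells there were 2.09 and 2.17 DCN UMIs per LUM UMI in the injured samples, against 2.88 in Normal_1 and 1.82 in Normal_2. The normal samples lay on either side of the injured ones, and the log2 ratio differed by -0.10 between Injury and Normal with an exact two-sided permutation p of 1. With 2 samples against 2 this test cannot go below 0.33. Both genes were higher in the injured than in the normal fibroblast-like samples, though neither passed the edgeR test. No shift of the ratio was detectable beyond the difference between the normal rabbits, and the log2 difference turned to 0.23 without Normal_1.

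Between subsets the ratio changed more than between conditions. Subset 0 held 1.64, 1.32, 2.35 and 1.43 DCN UMIs per LUM UMI, and subset 3 held 3.20, 3.02, 2.95 and 2.29. Subset 1 held 1.91, 2.21, 3.29 and 1.89 and subset 2 held 2.94, 3.33, 3.33 and 1.74. The mean log2 ratio was 0.71 ± 0.37 in subset 0 and 1.51 ± 0.21 in subset 3 (SD, n = 4), while no neighbouring subsets in the order of the ratio met the rule on neighbours. The step from subset 5 to subset 0 was the only one larger than its SD, at 0.40 ± 0.36 on the log2 scale and in the same direction in 3 of 4 samples (SD, n = 4). In subsets 4 and 5 the ratio was 2.38, 1.86, 2.35 and 2.17 and 2.39, 2.02, 2.14 and 2.13. In Normal_1 the ratio of subset 5, from 90 DCN and 42 LUM UMIs, was below that of subsets 0 to 3 of the same sample.

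**Figure D3:**
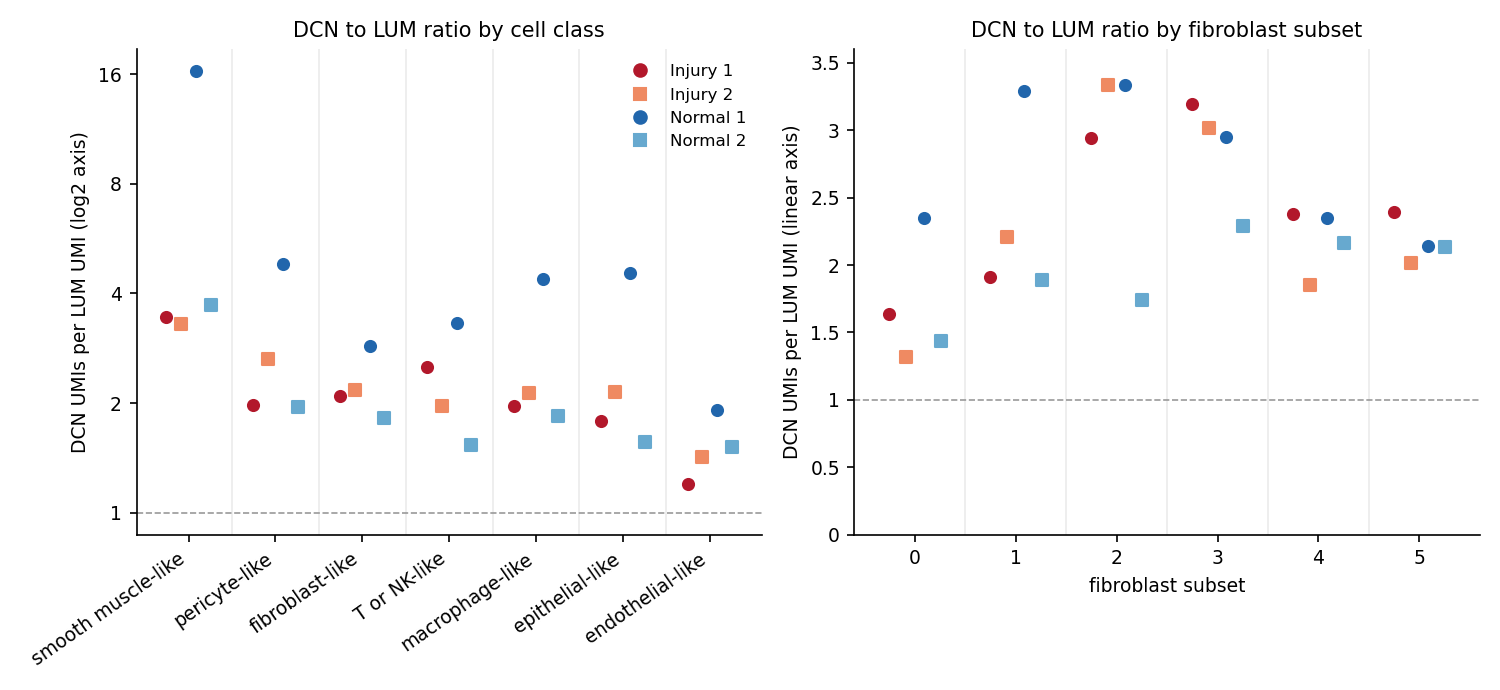
DCN UMIs per LUM UMI by cell class (left, log2 axis) and by fibroblast subset (right, linear axis from 0), with 1 point per sample and a dashed line at 1. Smooth muscle-like cells lie at 3.29 to 16.3 and endothelial-like cells at 1.20 to 1.91, and among the subsets the lowest mean is that of subset 0, at 1.32 to 2.35, which overlaps the other subsets.

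A finer clustering into 12 groups separated fibroblast-like cells in which LUM UMIs nearly equalled DCN UMIs in some samples, though not in Normal_1. In a group led by APOD and HSD11B1, with 53, 89, 122 and 132 cells, LUM was 27426, 26741, 14411 and 21990 CPM and the ratio was 1.04, 1.01, 1.84 and 1.08. In another, led by CHI3L1, COCH, COL11A1 and KIF26B, the ratio was 1.16 and 1.04 in the injured samples, from 223 and 238 cells, and the normal samples held only 1 and 6 cells of it. DCN in the injured samples of this group was 23679 and 19099 CPM and LUM was 20331 and 18419 CPM. The CHI3L1 group was thus made up almost wholly of injured cells, while the APOD group was found in all 4 samples. In the CHI3L1 group 10.3% of cells had a doublet score in the highest 5%, and the median depth was 10168.5 UMIs. The smooth muscle marker ACTG2 was also among its leading genes. The part of these in its ratio was not tested.

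Among the other classes, the ratio was highest in smooth muscle-like cells, at 3.45, 3.29, 16.3 and 3.71. It exceeded that of the fibroblast-like cells of the same sample in 4 of 4 samples, by 1.21 ± 0.88 on the log2 scale (SD, n = 4). With at most 10% of mitochondrial UMIs allowed, it was higher in 3 of 4 samples, by 0.62. In Normal_2 the larger smooth muscle cluster had a ratio of 1.52, below that of the fibroblast-like cells, and the smaller cluster had 9.30. In endothelial-like cells, at 1.20, 1.42, 1.91 and 1.52, it was below the fibroblast ratio in 4 of 4 samples, with a difference of -0.57 ± 0.22 (SD, n = 4). In both cases the exact sign-flip permutation p was 0.13, the smallest possible, and 0.563 after adjustment over 9 classes. The value of 16.3 rested on 326 DCN and 20 LUM UMIs in Normal_1. In pericyte-like, T or NK-like, macrophage-like and epithelial-like cells the ratio lay on both sides of the fibroblast value. In pericyte-like cells without those of at least 50 DCN UMIs it was 2.10, 2.91, 7.86 and 2.64. These values lay above the fibroblast ratios of 2.09, 2.17, 2.88 and 1.82, barely so in Injury_1, in a selection that uses DCN itself.

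Within single fibroblast-like cells with at least 20 UMIs of the 2 genes together, DCN made up a median of 71.1%, 71.5%, 75.2% and 65.5% of them. The variance of this share between cells was 29.6 and 32.0 times the binomial expectation in the injured samples and 7.67 and 9.62 times in the normal ones, so that cells differed in their balance beyond counting error in every sample. LUM exceeded DCN in 11.0% and 12.1% of these cells in the injured samples and in 2.00% and 7.09% in the normal ones. In subset 0 this share was 20.6%, 34.1%, 3.22% and 18.1%, and in subset 2 it was 0.532%, 1.62%, 0% and 1.83%. Injured cells had more UMIs of both genes per cell, with a median of 374 and 344 against 173 and 230, which raises the ratio of observed to binomial variance at the same true spread.

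**Figure D4:**
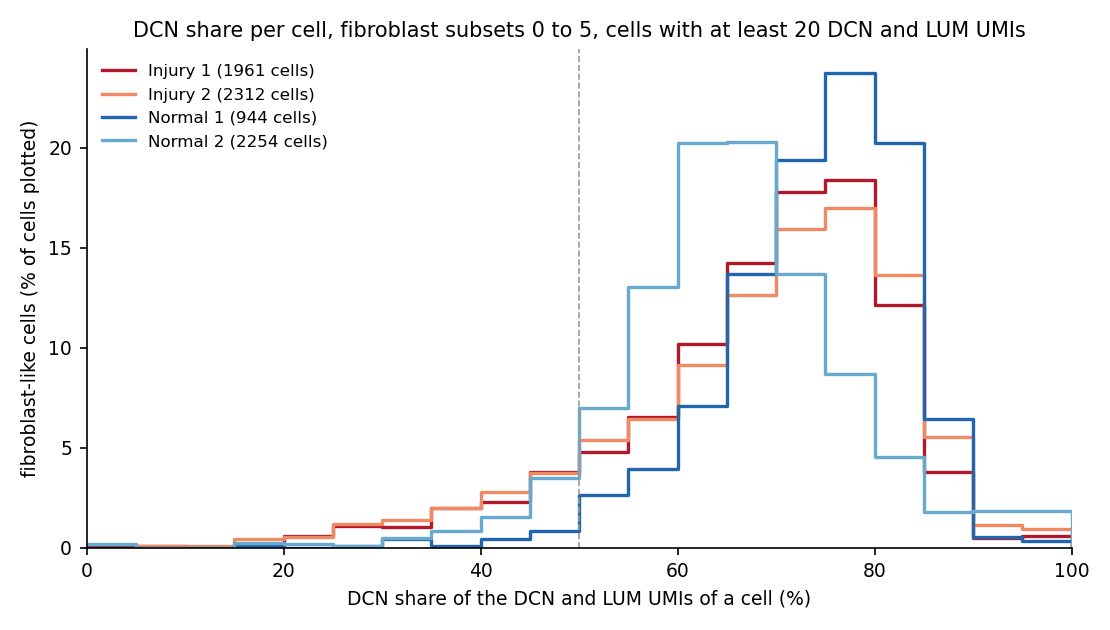
Share of DCN among the DCN and LUM UMIs of each cell, in bins of 5%, as a percentage of the cells plotted in each sample. Cells of subsets 0 to 5 with at least 20 UMIs of both genes together are shown, and the dashed line marks equal counts. The curves peak between 60% and 80%, and the injured samples have a longer lower tail, with LUM above DCN in 11.0% and 12.1% of fibroblast-like cells.

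Across single fibroblast-like cells, Spearman's rho between the CPM of DCN and of LUM was 0.72 in Normal_1 (1223 cells) and 0.84 in Normal_2 (3234 cells) but 0.22 in Injury_1 (2016 cells) and 0.21 in Injury_2 (2394 cells). These are descriptions over cells that share a library. In the normal samples 16.1% and 9.37% of fibroblast-like cells held neither gene, which is 197 and 303 cells, against 0.248% and 0.376% in the injured samples, 5 and 9 cells. Within subset 0, where nearly every cell held both genes, rho was -0.11 and -0.13 in the injured samples and 0.23 and 0.15 in the normal ones. In subset 3, where 97.3% and 95.3% of the normal cells held both genes, rho was 0.68 and 0.67 in the normal samples. In the injured samples of subset 3 it was 0.37 and 0.25. Over all fibroblast-like cells the higher correlation in the normal samples stood beside a larger share of cells without either gene. In subset 3 it was also higher where few cells lacked both, and the part of such cells was not tested.

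Across the sums per class and sample, the level of LUM was the one most like that of DCN among 3012 genes, with a Pearson r of 0.965 over 38 sums on the log2(CPM + 10) scale. DPT, which encodes the matrix protein dermatopontin, followed at 0.929 for DCN and 0.931 for LUM, and TCF21, a mesenchymal transcription factor, was at 0.910 and 0.892. LSAMP (0.899) and INMT (0.891) completed the 5 nearest for DCN, and SFRP2 (0.903) and INMT (0.894) those for LUM. Over the 24 sums per fibroblast subset and sample, each centred on its sample, r between DCN and LUM was 0.985 among 2744 genes. ABI3BP, another gene of the extracellular matrix, was next for both at 0.950 and 0.948. The lowest r with DCN was that of CCN4, a matricellular protein, at -0.964, and of GATA3, a transcription factor, at -0.950. These sums share cells, libraries and depth, and the values carry no test.

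With the log2 DCN to LUM ratio over the same 24 sums, the highest r were those of ALDH2 (0.695), ARRDC3 (0.683), CAMKK2 (0.672), COL14A1 (0.643) and ABCB6 (0.634), and the lowest those of SPP1 (-0.679), DSEL (-0.673), FERMT2 (-0.670), RTN4 (-0.653) and NOCT (-0.652). COL14A1 encodes a collagen that lies on the surface of fibrils, and DSEL encodes a dermatan sulfate epimerase, an enzyme of the type that modifies the chain of decorin. All were weaker than the relation of DCN with LUM itself.

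Of 17 listed genes of the family, 14 carry a symbol here. DCN had 1631538 UMIs over all kept cells, LUM 777803 and osteoglycin (OGN) 332991, while ECM2 had 10671, ASPN 6195, PODN 4469, OMD 2873, PRELP 2778, EPYC 908, KERA 714, TSKU 355, FMOD 127, OPTC 26 and NYX 1. EPYC and KERA, the neighbours of LUM on the chromosome, were thus among the low members. Of the 908 EPYC UMIs, 815 were in Injury_2.

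OGN did not share the low level of DCN and LUM in normal subsets 4 and 5. It was 5494, 4402, 3968 and 4435 CPM in all fibroblast-like cells, 4399, 4969, 2676 and 3840 CPM in subset 4 and 3954, 4425, 2286 and 3226 CPM in subset 5. Its log2 fold change with injury was 0.51 (SE 0.27) in subset 4, with an adjusted p of 0.918, and 0.38 (SE 0.31) in subset 5, with an adjusted p of 0.625, and in the interaction test its adjusted p was 0.328. Both injured samples lay above both normal ones for OGN in either subset, as they did for 19.2% and 34.4% of all genes tested there, but by less than for DCN and LUM. OGN thus stayed abundant in the normal cells in which DCN and LUM were low.

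ASPN, which encodes asporin, a relative of decorin without the sulfate chain, was 69.9 and 141 CPM in injured and 28.9 and 24.5 CPM in normal fibroblast-like cells. Its log2 fold change there was 2.10 (SE 0.38, adjusted p = 0.154 by edgeR). In pericyte-like cells ASPN was 78.2, 90.8, 275 and 127 CPM. This was well above the fibroblast-like cells in both normal samples, little above them in Injury_1 and below them in Injury_2. Of the ASPN UMIs 78.6% came from fibroblast-like cells, against 94.6% of those of DCN and 94.5% of those of LUM. FMOD, encoding fibromodulin, and OMD, encoding osteomodulin, had log2 fold changes of -2.43 (SE 0.57) and -1.58 (SE 0.55) in fibroblast-like cells at 0.427 to 3.66 and 11.4 to 77.5 CPM, and neither passed the test. ECM2, PRELP, PODN, KERA and TSKU had log2 fold changes from -0.68 to 0.41.

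The collagens that carry decorin and lumican stayed at high levels in the normal cells of subsets 4 and 5. In subset 4, COL1A2 was 17621, 22581, 8824 and 22902 CPM and COL3A1 was 14108, 19723, 9326 and 21921 CPM. COL1A1 was 7439, 8996, 1990 and 10364 CPM. Injured and normal samples overlapped for the 3 genes, and Normal_2 was the highest sample for each. PCOLCE, which enhances the trimming of procollagen, was 2545 and 2428 CPM in injured against 710 and 1177 CPM in normal cells of this subset.

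**Figure D5:**
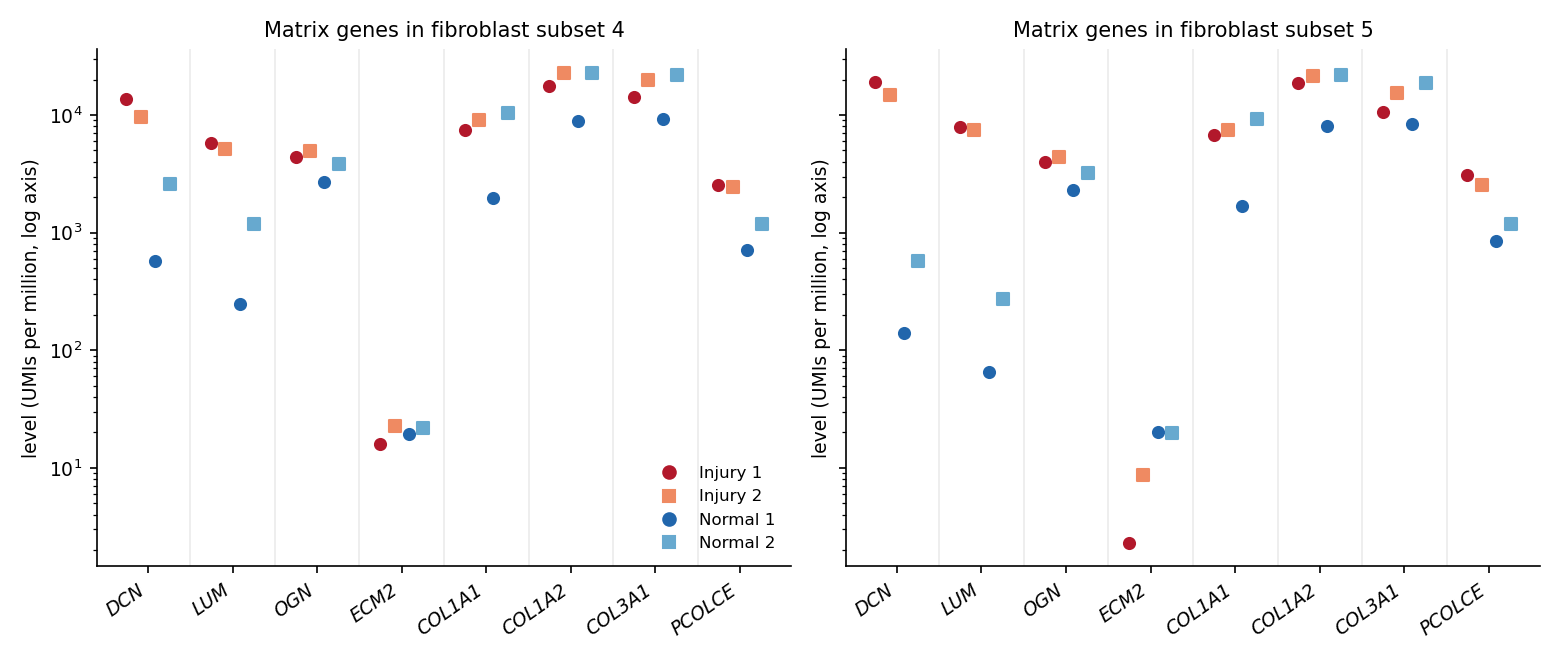
Levels of 4 proteoglycan or related genes and 4 genes of collagen or its processing in fibroblast subsets 4 (left) and 5 (right), in CPM on a log axis, with 1 point per sample. DCN and LUM split by condition, with 18936 and 14942 against 139 and 579 CPM of DCN in subset 5, while the collagens overlap between conditions. OGN and PCOLCE also split, but by less, with OGN at 3954 and 4425 against 2286 and 3226 CPM in subset 5.

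The genes around decorin and lumican were taken from lists of collagens, collagen processing, sulfate chain synthesis, proteases and partners. In fibroblast-like cells, edgeR called 0 of their tested members, as it called 0% of all genes. The median log2 fold change was 0.95 over 9 fibrillar and fibril-associated collagens, of which 8 were higher in both injured than in both normal samples and 1, COL12A1, was lower. It was 0.34 over 11 genes of collagen processing and crosslinking, 0.23 over 12 genes of chondroitin and dermatan sulfate synthesis, -0.47 over 6 genes of keratan sulfate synthesis, 0.14 over 10 proteases and inhibitors and 0.42 over 16 partners, against 0.003 over all 8751 genes. Of the last 5 lists, 5, 4, 1, 4 and 9 genes were higher and 3, 0, 4, 2 and 4 lower in both injured samples. Over all 8751 genes, 16.2% were higher and 27.6% lower in both injured samples.

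Levels of single genes of these lists in fibroblast-like cells are given as values, since none passed. COL3A1 was 31598 and 41876 CPM in injured and 15324 and 25456 CPM in normal samples, and COL12A1 was 134 and 222 against 464 and 924 CPM. XYLT1, which starts the sulfate chain, was 5.93 and 6.88 against 3.61 and 2.54 CPM. TGFB3, a ligand that decorin binds, was 49.7 and 33.2 against 9.74 and 7.92 CPM, and TLR2, a receptor of free decorin, was 11.6 and 10.3 against 3.61 and 1.59 CPM. ADAMTS5, a protease of large proteoglycans, was 125 and 174 against 81.4 and 63.1 CPM. These 6 genes were chosen after their values had been seen.

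In subset 5, 2 of the tested members of these lists rose, the collagen gene COL6A5 with a log2 fold change of 4.46 (SE 0.70, adjusted p = 0.0203 by edgeR) and CCN2 with 2.88 (SE 0.38, adjusted p = 0.0109), which encodes connective tissue growth factor, a partner of decorin. They were 1 of 8 collagens and 1 of 11 partners, and 1.72% of all genes were called in either direction. The median log2 fold change was 0.14 over the 8 collagens and -1.13 over 8 proteases and inhibitors, against -0.03 over all genes of the subset. In subset 4 no member of the lists was called by edgeR.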

How the data were processed

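The authors deposited UMI counts per gene and cell for the 4 libraries (Chromium Single Cell 3′ v3; the matrix headers name Cell Ranger 6.0.1, and the genome release is not given in the sources used here). The cell filter required 500 UMIs and 200 genes or more and allowed up to 15% of UMIs from 13 mitochondrial genes. They were integrated in Seurat 5.3.0 (2000 variable genes without the listed proteoglycans, 30 components, resolution 0.8), and clusters were named from marker genes that included neither DCN nor LUM. Fibroblast-like cells were clustered again at resolution 0.3. Names rebuilt in this way may differ from those of the study. Doublets were scored with Scrublet in scanpy 1.11.5 and left in, and an alternative leaves out the 5% with the highest scores. Columns of other series numbered 0.

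Counts were summed per sample and class or subset and tested with edgeR 4.0.16 (quasi-likelihood, filterByExpr, TMM, Benjamini-Hochberg adjusted p under 0.05), in R 4.3.3. DESeq2 1.42.0 was the other tool. Classes with at least 20 cells in every sample were tested. Levels on a log scale are log2(CPM + 10). With 2 rabbits per group the p-values measure the spread between these rabbits. On simulated counts for the comparison of fibroblast-like cells over 8751 genes, edgeR recovered 59.6% of genes changed 4-fold and 1.03% of those changed 2-fold, and 14 of its 74 calls were false. Intervals and shares cover counting error only.

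The members and gene lists were chosen with earlier results of these data known. The genes named were DCN, LUM, the listed family members, those with the 5 highest or lowest likeness, and list members that passed the test; others were chosen after their values were seen. Alternatives changed the cell filter, clustering, doublets, normalization, count filter, tool, replicate block and samples.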

Additional observations from a re-analysis of the deposited data

Results flagged for a closer look

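The change with injury differed between fibroblast subsets for 3 of the 12 family members tested, against 4.39% of all 6887 genes, in an edgeR interaction of subset and condition that was added after the data had been seen. DCN had an adjusted p of 4.75e-05. With each sample left out in turn its adjusted p ranged from 1.96e-10 to 0.0106. LUM had an adjusted p of 8.67e-07, with a range of 3.16e-10 to 0.00123 when samples were left out. For both genes the injured cells of subsets 4 and 5 were higher than the normal ones by more than in subset 0. All sums of this fit come from 4 rabbits, and the normal rabbits differed more in DCN in subsets 4 and 5 than in the other subsets, which limits these p-values.

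PODN, which encodes podocan, had an adjusted p of 0.0331 and the opposite direction, with a log2 change that differed from that in subset 0 by -0.72 in subset 4 and by -1.53 in subset 5. Its call was lost without Injury_1 (adjusted p = 0.403), Injury_2 (0.413) or Normal_2 (0.350) and was kept without Normal_1 (0.0129).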

How the results depend on the processing

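Of 210 alternative values for 25 results, 183 were labelled unchanged. For fold changes and the interaction this meant the same direction and the same side of the threshold. The exact permutation tests cannot pass the threshold with so few samples, so for results that rest on them the label says nothing about it. Counts, levels by subset and shares per cell carry no test and were labelled by the size of their change. The number 183 was thus partly fixed in advance. The count of genes called between injured and normal fibroblast-like cells was 0 by edgeR, 256 by DESeq2, 577 without the filter on low counts and 11 without subsets 4 and 5. It was 33 without Injury_1 and 57 without Injury_2, in a range of 0 to 57 when 1 sample was left out, where a lone sample is assumed to vary like the other group. The fold change of LUM in fibroblast-like cells passed without the filter on low counts (log2 0.98, adjusted p = 0.0343) and in no other alternative. Those of DCN in fibroblast-like cells were 0.40 to 0.88, and 0.67 to 1.03 with 1 sample left out, and none passed.

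In subset 4, DCN passed with DESeq2 (2.85), without the filter (2.78) and without Normal_1 or Normal_2 (2.16 and 4.28), and LUM likewise (2.90, 2.83, 2.19 and 4.42). These are the lowest and highest values with 1 sample left out. In subset 5, DCN (4.58 to 6.83) and LUM (4.52 to 6.78) passed with each sample left out. Over all other classes and the subsets, those of subsets 4 and 5 included, DCN and LUM had 2 calls by edgeR and 4 by DESeq2. The DCN to LUM ratio between Injury and Normal turned to 0.23 without Normal_1, in a range of -0.43 to 0.23. The ratio between the highest and the lowest subset was 0.79 on the log2 scale (0.66 to 0.95 with 1 sample left out) and 1.25 at resolution 0.8. The cause of these changes was not tested.

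With the replicate number as a block, 252 genes were called in fibroblast-like cells, DCN and LUM passed in subset 4 (3.20 and 3.30, adjusted p = 0.0132 and 0.0110), DCN also passed in subset 3 (adjusted p = 0.0467), and with the 2 calls of subset 5 this made 5 calls over all classes and subsets. Same-numbered samples correlated with r = 0.19 across 8751 genes over 2 pairs, and nothing in the labels pairs the rabbits.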

Other observations

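A cluster left unnamed for its low UMI counts, of 68, 70, 86 and 127 cells in Injury_1, Injury_2, Normal_1 and Normal_2, held 8731, 11804, 865 and 1652 CPM of DCN. An unnamed cluster led by the cell division genes ANLN, CCNB2 and CDK1 held 8787, 11470 and 5050 CPM of DCN in the 23, 35 and 38 cells of Injury_1, Injury_2 and Normal_2, and the 9 cells of Normal_1 were too few for a level. In this cluster 21.0% of cells had a doublet score in the highest 5%.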
